A study of Homo sapiens with 6 samples.

Results

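The polysome-associated mRNAs of 7 secreted angiogenic and vasoactive factors were followed: the vascular endothelial growth factor (VEGF) family ligands VEGFA, VEGFB, VEGFC and PGF, the peptide hormone precursor adrenomedullin (ADM), and the stanniocalcins STC1 and STC2. They were chosen by gene symbol, with no filter on their values but with earlier results of these data known. All 7 were found among the 30726 symbols of the deposited table. The 6 libraries came from 3 established, unmodified (WT) human breast cancer cell lines: T47D, labelled luminal A, SKBR3, labelled luminal and HER2-positive, and SUM1315, labelled triple negative. Every line gave 1 normoxic library (21% oxygen) and 1 hypoxic library (8 hours in 1% oxygen). All cells received cycloheximide, which halts ribosomes on mRNA, before polysomes were separated on sucrose gradients and their RNA was sequenced. The stated purpose was to learn how hypoxia affects translation.

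Each line had its own medium, with insulin and EGF for SUM1315, insulin for T47D and neither named for SKBR3, so line and medium cannot be told apart. A line is 1 cell line and not a tumour subtype. In RNA from bulk polysomes, more mRNA in the cell, more of it on ribosomes and more cells making it cannot be told apart.

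VEGFA is the main inducer of new blood vessels and signals through the endothelial receptors KDR and FLT1. VEGFB and PGF bind FLT1, and VEGFC, which drives lymphatic vessel growth, binds FLT4 and KDR. Adrenomedullin widens blood vessels through the receptor CALCRL paired with RAMP2 or RAMP3. The stanniocalcins are secreted glycoproteins that block the protease PAPP-A, which frees insulin-like growth factors from their binding proteins. Transcription of several of these genes is induced by the hypoxia-inducible factors (HIF), which bind the core letters ACGTG or GCGTG in DNA.

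The letters ACGTG or GCGTG, on either strand, were searched in the 250 bases before the RefSeq start (GRCh38.p14) of the 5 members with an entry, VEGFB, VEGFC, PGF, ADM and STC2. Stretches around the matches are shown for 4 of them, since these range from the highest tested fold change (ADM) to a fold change that did not pass (VEGFC), with the matches in capitals.
ADM: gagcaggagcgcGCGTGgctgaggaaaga
STC2: catacaCACGCACGCaaacGCGTGgccgcc
VEGFB: ccggtggggagcGCGTGtctgggtcacat
VEGFC: gcccgggctcggCACGCtccctccctcgg
The ADM stretch lies at chr11:10304960-10304988 (plus strand) and the VEGFB stretch at chr11:64234511-64234539 (plus strand). The STC2 stretch lies at chr5:173328626-173328655 (minus strand) and the VEGFC stretch at chr4:176792965-176792993 (minus strand). In GENCODE release 29 the ADM and STC2 stretches fall inside an exon of a longer transcript of the same gene, and the other 2 do not. ADM, VEGFB and VEGFC had 1 match each and STC2 had 3 matches. PGF has 2 promoter entries, of which 1 held a match and the other none. Such matches are common: 43.2% of 35116 promoters of this length held at least 1. They describe the letters present and do not show binding.

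Among the 6 members that could be tested, VEGFA, ADM and STC1 rose under hypoxia, none fell, and VEGFB, VEGFC and STC2 did not pass. Over all 10253 genes tested, 4.12% were called higher and 2.26% lower (6.38% in either direction). The test was limma on log2(RPKM + 1) with cell line as a block, called at a Benjamini-Hochberg adjusted p under 0.05, over genes with 1 RPKM or more in at least 3 libraries. RPKM is a read number divided by transcript length and by library size. PGF reached 1 RPKM in none of the 6 libraries and was not tested. The median log2 fold change of the 6 tested members was 0.95, against -0.01 over all genes tested. The libraries held 9675 to 10842 genes at 1 RPKM or more, and the marker lists were read as a check of the labels. ESR1 stood at 4.54 and 5.18 RPKM in T47D and below 0.1 RPKM elsewhere. ERBB2 stood at 615 and 743 RPKM in SKBR3 against 5.34 to 8.76 RPKM in the other lines. The basal keratin KRT5 was listed at 0 in SUM1315, where vimentin (VIM) stood at 407 and 1161 RPKM. Not every marker followed its line: the luminal keratins KRT8, KRT18 and KRT19 were higher in SKBR3 than in T47D, so the 8 luminal markers summed to 1253 and 2914 RPKM in SKBR3 against 948 and 1631 RPKM in T47D. FN1, listed with the mesenchymal markers, was at 0.356 and 0.285 RPKM in SUM1315 and at 1.26 and 1.75 RPKM in SKBR3 (normoxia and hypoxia in turn).

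**Figure D1:**
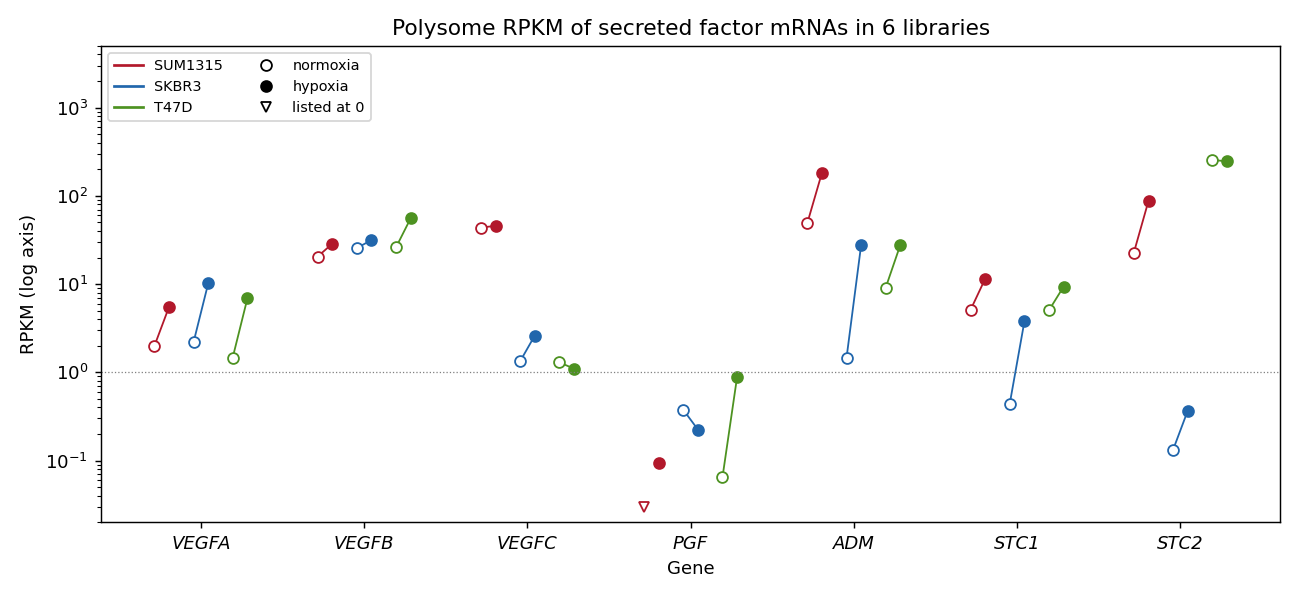
RPKM of the 7 mRNAs (log axis) in each line at normoxia (open) and hypoxia (filled). Lines join the 2 libraries of a cell line, the triangle marks a value listed at 0, and the dotted line is 1 RPKM. VEGFA, ADM and STC1, and also VEGFB, whose change did not pass, were higher at hypoxia in all 3 lines. STC2 spans from 0.132 to 255 RPKM.

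VEGFA mRNA rose from a low level, with the hypoxic library the higher one in each line. SUM1315 had 1.98 RPKM at normoxia and 5.51 at hypoxia, SKBR3 had 2.19 and 10.2, and T47D had 1.47 and 6.87. All 3 hypoxic values lay above all 3 normoxic values, at means of 7.52 ± 2.40 and 1.88 ± 0.37 RPKM (SD, n = 3 lines). The share of all tested genes with such a separation was not counted. The log2 fold change was 1.54 ± 0.16 (SE, adjusted p = 0.000884), place 33 from the top among 10253 genes. As a ratio of RPKM, hypoxia over normoxia came to 2.78 for SUM1315, 4.65 for SKBR3 and 4.68 for T47D. VEGFA spans chr6:43770184-43786487 on the plus strand of GRCh38, where an antisense gene of GENCODE overlaps 188 bases of it. GENCODE lists 24 basic coding transcripts of 414 to 3535 bases, so its RPKM depends on the lengths used for counting. Depending on that length, the lowest VEGFA value stood for 14.7 to 125 reads or read pairs.

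VEGFB stood above VEGFA in all 6 libraries, and its change with hypoxia did not pass. SUM1315 stood at 20.5 RPKM at normoxia and 28.7 at hypoxia, SKBR3 at 25.6 and 31.5, and T47D at 26.0 and 55.6. The groups did not overlap, a trait not counted over all genes, but the hypoxic T47D library stood well above the other 2 hypoxic libraries. Its log2 fold change was 0.61 ± 0.18 (adjusted p = 0.068). Without T47D it was 0.38 (adjusted p = 0.32), and over the 10 alternative settings the adjusted p ran from 0.051 to 1.00. VEGFB spans chr11:64234538-64238793 on the plus strand of GRCh38.

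VEGFC differed between lines, and its change with hypoxia did not pass. In SUM1315 it stood at 43.7 RPKM at normoxia and 45.7 RPKM at hypoxia. In SKBR3 it went from 1.33 to 2.60 RPKM and in T47D from 1.30 to 1.10 RPKM. The log2 fold change with hypoxia was 0.19 ± 0.16 (adjusted p = 0.49), and it was -0.03 without SKBR3. SUM1315 exceeded SKBR3 by 3.98 ± 0.20 and T47D by 4.38 ± 0.20 on the log2 scale (adjusted p = 8.26e-08 and 4.91e-08). In all line contrasts here, the normoxic and hypoxic library of a line are its only replication. Their p-values therefore do not measure the spread between cultures of a line. SKBR3 minus T47D did not pass (0.40 ± 0.20, adjusted p = 0.11). That difference rested on single libraries: it passed at 0.73 without normoxic SKBR3 (adjusted p = 0.015) and was 0.065 without hypoxic SKBR3 (adjusted p = 0.80), 0.16 without hypoxic T47D and 0.63 without normoxic T47D. VEGFC spans chromosome 4 from 176683538 to 176792727 (GRCh38, minus strand), and an antisense gene of GENCODE overlaps 22608 bases of that span, introns included. Overlap of exons was not examined, so whether reads of the partner could count here is not known.

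PGF, a ligand named for the placenta, was near the limit of detection. It was listed at 0 in normoxic SUM1315 and at 0.0939 RPKM in hypoxic SUM1315. It stood at 0.376 and 0.224 RPKM in SKBR3, and at 0.0643 and 0.892 RPKM in T47D, at normoxia and hypoxia in turn. The highest of these stood for about 13.2 to 38.2 reads or read pairs, depending on the transcript, and the T47D normoxia value for 1.03 to 2.99. For the library listed at 0, a count of 3 would have given 0.0718 to 0.208 RPKM. PGF spans chr14:74941834-74955784 on the minus strand of GRCh38.

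VEGFC made up 66.1% of the summed RPKM of the 4 ligands in normoxic SUM1315 and 57.1% in hypoxic SUM1315. In SKBR3 and T47D, VEGFB made up 70.8% to 90.2%. VEGFA held 2.99% at normoxia and 6.89% at hypoxia in SUM1315, 7.43% and 22.9% in SKBR3, and 5.09% and 10.7% in T47D. Summed over the 4 ligands, normoxia and hypoxia gave 66.2 and 80.0 RPKM in SUM1315, 29.5 and 44.5 RPKM in SKBR3, and 28.8 and 64.4 RPKM in T47D. These shares are descriptions with no test.

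**Figure D2:**
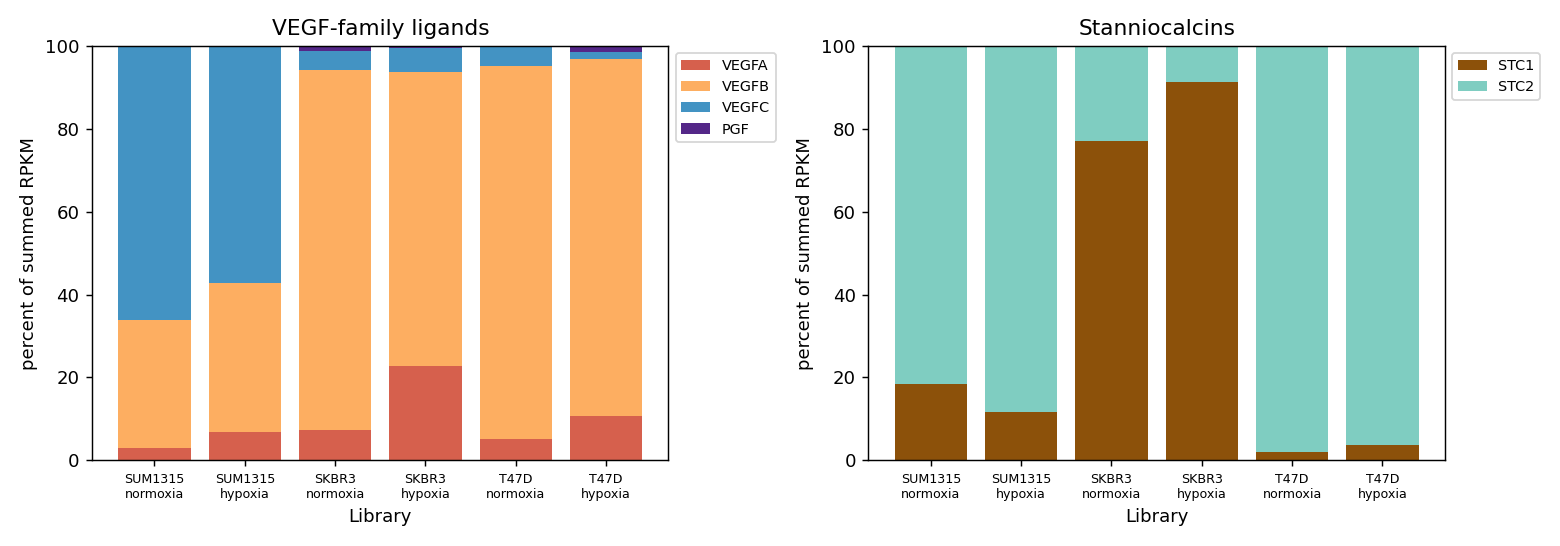
Share of each mRNA in the summed RPKM of the 4 VEGF-family ligands (left) and of the 2 stanniocalcins (right), in percent, by library. VEGFC fills most of both SUM1315 bars, VEGFB most of the SKBR3 and T47D bars, and STC1 exceeds STC2 in SKBR3 alone of these lines.

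ADM had the highest fold change of the 6 tested members. Normoxic and hypoxic values were 49.1 and 184 RPKM in SUM1315, 1.45 and 28.1 RPKM in SKBR3, and 9.11 and 27.9 RPKM in T47D. The groups overlapped, since normoxic SUM1315 stood above hypoxic SKBR3 and T47D, but each line's hypoxic library was the higher one. The log2 fold change was 2.32 ± 0.32 (SE, n = 3 lines, adjusted p = 0.00485), place 11 from the top. By line, the log2 ratio of RPKM + 1 came to 3.57 for SKBR3, 1.88 for SUM1315 and 1.51 for T47D. As plain ratios of RPKM these were 19.3, 3.74 and 3.06. The SKBR3 log2 ratio was second from the top of 10253 genes in that line. The normoxic value under it stood for 28.4 to 91.8 reads or read pairs. Whether the lines differ in their rise was not tested, as each ratio compares single libraries. Without SKBR3 the fold change was 1.70 (adjusted p = 0.0024).

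SUM1315 had more ADM mRNA than SKBR3 by 3.51 ± 0.39 and than T47D by 2.49 ± 0.39 on the log2 scale (adjusted p = 2.23e-05 and 0.000243). T47D was above SKBR3 by a narrow call (SKBR3 minus T47D -1.02 ± 0.39, adjusted p = 0.045). That call was lost without the normoxic SKBR3 library (-0.08, adjusted p = 0.79) or the normoxic T47D library (-0.41, adjusted p = 0.41). It was also lost with a pseudocount of 5 (adjusted p = 0.080), no filter (0.37), the filter at 1 RPKM in at least 1 library (0.086), median-ratio scaling (0.088) or no trend (0.051), and the adjusted p ran from 0.000186 to 0.79 over its alternatives. The hypoxic values of these lines were nearly equal. ADM spans chr11:10304680-10307397 on the plus strand of GRCh38.

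STC1 rose, with the hypoxic library the higher one in each line. Its values at normoxia and hypoxia were 5.11 and 11.5 RPKM in SUM1315, 0.441 and 3.80 RPKM in SKBR3, and 5.04 and 9.36 RPKM in T47D. The normoxic SKBR3 value stood for 25.8 to 57.3 reads or read pairs, depending on the transcript. The hypoxic SKBR3 library lay below both other normoxic libraries, so the oxygen groups overlapped across lines. The log2 fold change was 1.18 ± 0.18 (SE, n = 3 lines, adjusted p = 0.00807). SKBR3 was lowest in STC1 mRNA: SUM1315 minus SKBR3 was 1.74 ± 0.22 (adjusted p = 5.88e-05) and SKBR3 minus T47D -1.59 ± 0.22 (adjusted p = 0.000178) on the log2 scale. SUM1315 minus T47D did not pass (0.15 ± 0.22, adjusted p = 0.57). STC1 spans chr8:23841915-23854807 on the minus strand of GRCh38.

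STC2 levels were far apart between lines. The mRNA stood at 255 RPKM at normoxia and 246 RPKM at hypoxia in T47D, place 190 and 213 among all genes of those libraries. In SUM1315 it went from 22.7 to 87.8 RPKM. In SKBR3 it went from 0.132 to 0.366 RPKM, about 23.6 and 54.2 reads or read pairs. The log2 ratio of RPKM + 1 came to -0.05 for T47D, 0.27 for SKBR3 and 1.91 for SUM1315. As plain ratios of RPKM these were 0.965, 2.78 and 3.87, so the added 1 shrinks the SKBR3 ratio. Over the 3 lines the log2 fold change was 0.71 ± 0.31 (adjusted p = 0.18), and it was 0.11 without SUM1315 (adjusted p = 0.84). The SUM1315 log2 ratio was at place 29 of 10253 in that line, with no replicate to test it.

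All 3 contrasts between lines passed for STC2. T47D was highest: SUM1315 minus T47D was -2.46 ± 0.38 (adjusted p = 0.000216) and SKBR3 minus T47D -7.66 ± 0.38 (adjusted p = 2.51e-07). SUM1315 exceeded SKBR3 by 5.20 ± 0.38 (adjusted p = 1.02e-06). STC2 made up 98.1% of the stanniocalcin RPKM in normoxic T47D, 81.6% in normoxic SUM1315 and 23.0% in normoxic SKBR3. STC2 spans chr5:173314713-173329503 on the minus strand of GRCh38.

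**Figure D3:**
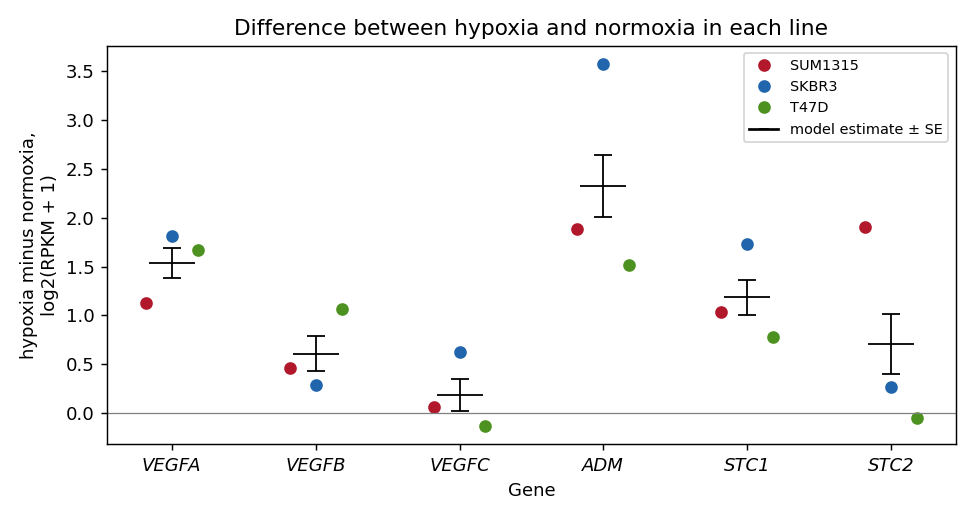
Difference between hypoxia and normoxia in log2(RPKM + 1) for the 6 tested mRNAs. Points are the 3 lines, and bars are the model estimate ± SE. For VEGFA, ADM and STC1 all points lie above 0.7, while STC2 runs from -0.05 in T47D to 1.91 in SUM1315.

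Differences between lines were common in these data: 69.8% of the genes tested passed between SUM1315 and SKBR3 (41.8% higher and 28% lower in SUM1315), 69.2% between SUM1315 and T47D (39% and 30.2%), and 57.9% between SKBR3 and T47D (26.6% higher and 31.2% lower in SKBR3). Beside these shares, 11 of the 18 member contrasts passed. None of these counts rests on repeated cultures of a line. With all 6 libraries VEGFA passed in none of its 3 contrasts: SUM1315 minus SKBR3 was -0.44 ± 0.19 (adjusted p = 0.061), SUM1315 minus T47D -0.00 ± 0.19 (adjusted p = 0.997) and SKBR3 minus T47D 0.44 ± 0.19 (adjusted p = 0.071). The last of these crossed the threshold without hypoxic or normoxic SUM1315, but stayed at 0.44 there. A SUM1315 library cannot move that difference, only the spread it is tested against. SKBR3 minus T47D was 0.64 without normoxic SKBR3, where it passed, and 0.23 without hypoxic SKBR3, where it did not. SUM1315 minus SKBR3 passed for VEGFA without normoxic SUM1315 (-0.75, adjusted p = 0.010) or normoxic SKBR3 (-0.64, adjusted p = 0.031), and was -0.13 without hypoxic SUM1315 and -0.23 without hypoxic SKBR3. VEGFB passed between SUM1315 and T47D (-0.63 ± 0.22, adjusted p = 0.025), and its SKBR3 minus T47D difference of -0.41 ± 0.22 (adjusted p = 0.13) passed without normoxic T47D (-0.75, adjusted p = 0.020) and was -0.067 without hypoxic T47D. The VEGFB call was lost with no filter on low values (adjusted p = 0.14) and without hypoxic T47D (-0.29, adjusted p = 0.31), hypoxic SUM1315 (-0.52, adjusted p = 0.18) or normoxic SUM1315 (-0.74, adjusted p = 0.054), and its adjusted p ran from 0.00324 to 0.31 over the alternatives. The median gene was higher in SUM1315 than in SKBR3 by 0.21 and than in T47D by 0.16 on the log2 scale. With libraries scaled to a common median ratio, those medians were -0.00, and the VEGFA difference between SUM1315 and SKBR3 passed (-0.65, adjusted p = 0.020, with a range of 0.010 to 0.67 over the alternatives).

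The calls for VEGFA, ADM and STC1 held with any 1 line left out. Their log2 fold changes there ran from 1.40 to 1.74, 1.70 to 2.72 and 0.91 to 1.39. Such fits keep fewer residual degrees of freedom than the 2 of the full fit. For ADM the limma adjusted p was 4.58e-12 without SUM1315, against 0.00485 with all lines. Holding the call with less data is thus a weak check. These member calls were lost without the block for cell line (adjusted p = 1.00 for each) and without the filter on low values (adjusted p = 0.40, 0.43 and 0.42). Under these settings limma called no gene between hypoxia and normoxia (68 and 2715 at an unadjusted p under 0.05). The line contrasts with no filter still called 6107 to 9755 genes.

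Receptor mRNAs were read from the same libraries. FLT1 was listed at 0 in 5 libraries and at 0.00358 RPKM in hypoxic T47D, and KDR reached at most 0.0430 RPKM. FLT4, the receptor of VEGFC, stood at 1.54 and 2.19 RPKM in SUM1315 and at 1.74 and 1.92 RPKM in T47D, but at 0.00338 and 0.0163 RPKM in SKBR3 (normoxia and hypoxia in turn). Its log2 fold change with hypoxia was 0.15 ± 0.11 (adjusted p = 0.43). The co-receptor NRP1 stood at 2.97 and 3.37 RPKM in SUM1315, 1.44 and 1.85 RPKM in SKBR3 and 0.0791 and 0.0937 RPKM in T47D (0.13 ± 0.11, adjusted p = 0.49). NRP2 stood at 5.18 and 9.91 RPKM in SUM1315 and below 0.1 RPKM in the other 4 libraries, and was not tested.

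For adrenomedullin, CALCRL and RAMP3 were listed at 0 in all 6 libraries. RAMP2 ran from 0.0324 to 0.605 RPKM, and ACKR3, a receptor that scavenges adrenomedullin, reached at most 0.122 RPKM. RAMP1 was listed at 0 outside hypoxic T47D (0.118 RPKM), CALCR was found in T47D alone of the 3 lines (0.491 and 0.448 RPKM at normoxia and hypoxia), and GPR182 reached at most 0.0318 RPKM. PAM, the enzyme that amidates adrenomedullin into its active form, was present in each line, at 8.13 and 10.3 RPKM in SUM1315, 1.13 and 0.961 RPKM in SKBR3 and 5.60 and 5.91 RPKM in T47D (0.09 ± 0.14, adjusted p = 0.71). Of the 9 genes on this list, PAM alone was tested. PAPPA, the protease that stanniocalcins block, reached at most 0.0410 RPKM. Its substrate IGFBP4 stood at 555 and 837 RPKM in T47D, 5.31 and 5.15 RPKM in SUM1315 and 0.149 and 0.410 RPKM in SKBR3 (0.28 ± 0.16, adjusted p = 0.29). IGFBP5 had 0.54 ± 0.15 (adjusted p = 0.059) and the receptor IGF2R 0.45 ± 0.15 (adjusted p = 0.095), and none of the 3 tested genes of this list passed. IGF1R, not tested, stood at 2.69 and 3.50 RPKM in T47D and below 1 RPKM in the other lines.

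**Figure D4:**
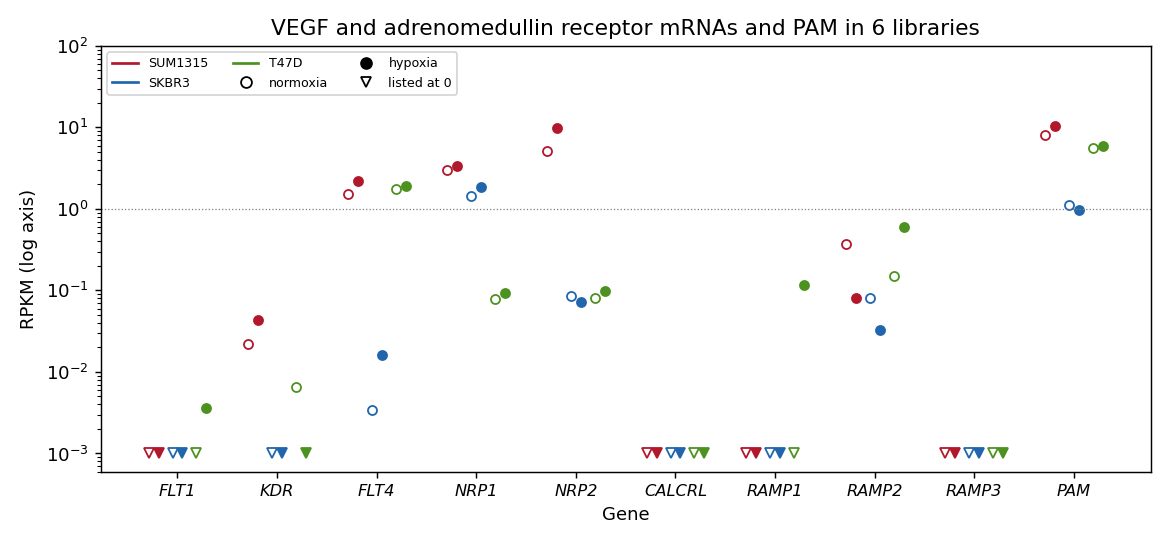
RPKM (log axis) of the receptors of VEGF ligands and adrenomedullin and of the amidating enzyme PAM, in each line at normoxia (open) and hypoxia (filled). Triangles at the bottom mark values listed at 0. CALCRL and RAMP3 were listed at 0 in all 6 libraries, and FLT1 in 5 of them.

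Of 26 listed secreted angiogenic factors outside the members, 15 were tested, 2 rose and none fell, with a median of 0.23. ANGPTL4, a secreted inhibitor of lipoprotein lipase, led the list at 3.21 ± 0.24 (adjusted p = 0.000108). EPO, which drives red cell formation, had 1.20 ± 0.34 (adjusted p = 0.060). ANG, the ribonuclease angiogenin, rose by 1.14 ± 0.21 (adjusted p = 0.015) and is named after its values were seen. AREG (-0.13 ± 0.14, adjusted p = 0.58) and PDGFC (-0.07 ± 0.14, adjusted p = 0.76) were lowest. Of 4 tested vasoactive genes none passed, with EDN2 (0.98 ± 0.29, adjusted p = 0.068) and EDN1 (0.49 ± 0.19, adjusted p = 0.14) highest and ADM2 (-0.07 ± 0.12) and ECE1 (0.49 ± 0.27) lowest. Of the 2 tested angiogenesis inhibitors, THBS1 (-0.06 ± 0.15, adjusted p = 0.84) and SEMA3F (-0.03 ± 0.15, adjusted p = 0.93) did not pass.

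Of 23 tested HIF targets outside the 7 members, 21 rose and none fell, with a median of 1.70. This list, too, was chosen with earlier results of these data known. DDIT4 (3.60 ± 0.17) and BNIP3 (2.80 ± 0.24) were highest, and CA12 (-0.52 ± 0.21, adjusted p = 0.16) and LOX (0.56 ± 0.24, adjusted p = 0.18) were lowest. STC2 is also known as a target of the unfolded protein response and, in breast cells, of estrogen. Of 13 tested genes of the ATF4 and stress response list, PPP1R15A alone rose (0.80 ± 0.15, adjusted p = 0.019), with a median of 0.36. DDIT3 had 0.80 ± 0.23 (adjusted p = 0.061), and PSAT1 (-0.46 ± 0.13) and TRIB3 (-0.31 ± 0.24) were lowest. Of 7 tested estrogen receptor targets none passed, with TFF3 (0.72 ± 0.30) and TFF1 (0.57 ± 0.17) highest, CA12 and CCND1 (-0.47 ± 0.18) lowest and a median of 0.04. In SUM1315, where STC2 had its highest ratio, DDIT3 had 7.44 RPKM at normoxia and 24.6 at hypoxia, and HSPA5 had 33.6 and 88.5. In T47D, where the STC2 log2 ratio was -0.05, DDIT3 had 17.1 and 25.6 RPKM and HSPA5 had 20.7 and 35.8. In SKBR3, DDIT3 had 1.78 and 2.34 RPKM and HSPA5 had 19.4 and 21.2. Not every gene of the stress list was higher at hypoxia in SUM1315: PSAT1 went from 30.6 to 21.9 RPKM there, and XBP1 stood at 33.8 and 35.1 RPKM. HSPA5 and XBP1 were named after their values were seen, and the part of these genes in the STC2 values was not tested.

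The genes whose centred log2(RPKM + 1) values lay nearest to each member over the 6 libraries were sought among all genes tested. Nearest to VEGFA were C4orf3, FUT11 and YEATS2, at Euclidean distances of 0.46, 0.64 and 0.64 against a median of 2.42 over all genes. Nearest to ADM were BHLHE40, EHD2 and ANGPTL4, at 1.97, 2.05 and 2.13 against a median of 4.69. BHLHE40, a transcriptional repressor, had 31.4 and 99.0 RPKM in SUM1315, 5.89 and 42.8 RPKM in SKBR3, and 12.9 and 43.6 RPKM in T47D. For STC1 they were NAB2, NUDT18 and MAGED2 (0.78, 0.85 and 0.92, median 2.64), and for STC2 GNG11, TP53I3 and IFI27L2 (2.28, 2.61 and 2.67, median 7.96). For VEGFB they were URB1-AS1, RNF7 and ATP6V1H (0.27, 0.27 and 0.35, median 1.69), and for VEGFC S100A2, RCN3 and AMIGO2 (0.81, 0.87 and 0.89, median 4.76). These distances describe 6 libraries that share lines in pairs and carry no test.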

How the data were processed

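RPKM values, made by the authors and deposited as 1 table with 1 column per library, were used as deposited. The header names no unit. Where GENCODE release 29 gives a gene only 1 transcript, value times length fell within 0.02 of a whole multiple of 1 step in 63.3% to 67.1% of genes per library (4% by chance). That step puts 1 RPKM at 21.7 to 33.4 reads or read pairs per kilobase. Read numbers given for genes are estimates from it and cover counting error only. Trimmomatic, HISAT2, SAMtools, Partek and GRCh38/hg38 are named per the submitters' processing notes. Counting annotation and strand: not given in the sources used here.

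Genes reaching 1 RPKM in 3 or more of the 6 libraries were fitted with limma 3.58.1 (R 4.3.3) on log2(RPKM + 1), with line and oxygen as terms, a mean-variance trend and two-sided Benjamini-Hochberg adjusted p-values. Line contrasts came from the same fit. The 2 residual degrees of freedom were joined by 8.02 prior ones, so each SE joins the gene's own spread with the spread shared over genes. A fold change on this scale understates changes of low genes. The lines pair the libraries per the labels: deviations from the oxygen group means correlated at 0.94 to 0.97 within lines. The labels give no second culture of any line, and p-values measure the spread between these libraries. The fit was tested on simulated data. The alternatives were pseudocounts of 0.1 and 5, no filter, 1 RPKM in at least 1 library, median-ratio scaling, no trend, no block, and lines or libraries left out. All members are named, and for each list other than the marker lists the 2 highest and 2 lowest tested genes, the receptors, and the 3 nearest genes by distance. The members and lists were chosen with earlier results of these data known.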

Additional observations from a re-analysis of the deposited data

Results flagged for a closer look

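STC2 and VEGFC had log2 ratios of RPKM + 1, hypoxia over normoxia, that went opposite ways in different lines, with at least 1 RPKM in each line compared. For STC2 the ratio was 1.91 in SUM1315 and -0.052 in T47D. For VEGFC it came to -0.13 for T47D, 0.063 for SUM1315 and 0.63 for SKBR3. Each ratio compares 1 library with 1 library, so these differences between lines were not tested.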

How the results depend on the processing

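Counts of genes called between hypoxia and normoxia moved most. Against 422 higher and 232 lower genes, limma gave 171 and 72 with a pseudocount of 5, 139 and 36 with the filter at 1 RPKM in at least 1 library, and 0 and 0 both with no filter and with no replicate block. In those last settings 2715 and 68 genes had an unadjusted p under 0.05. Leaving out 1 line gave 179 to 552 higher and 53 to 271 lower genes, the fewest without T47D. The fold changes of VEGFA (1.54), ADM (2.32) and STC1 (1.18) were no longer past the threshold with no filter (adjusted p = 0.40, 0.43 and 0.42) or with no replicate block for the paired lines (adjusted p = 1.00 each). They kept their side of it under the other 8 alternatives, of which those with a line left out are a weak check. With a line left out the VEGFC fold change ran from -0.034 (without SKBR3) to 0.35. VEGFB, VEGFC and STC2 did not pass with the block, and without it no gene passed, so that setting is no check of them. Among line contrasts that did not pass, with 1 library left out, the VEGFB difference between SUM1315 and SKBR3 ran from -0.46 to 0.017 (without normoxic SKBR3). The VEGFA difference between SUM1315 and T47D ran from -0.31 (without normoxic SUM1315) to 0.31 (without hypoxic SUM1315), with 0.10 without hypoxic T47D, and was 0.047 with a pseudocount of 0.1. The STC1 difference between those lines ran from -0.16 (without hypoxic T47D) to 0.45 (without normoxic T47D), and was -0.026 with median-ratio scaling. With no filter, SUM1315 minus T47D missed the threshold for ADM (adjusted p = 0.063), STC2 (0.059) and VEGFB (0.14), and SKBR3 minus T47D for ADM (0.37). The cause of these changes was not tested. Depth limits PGF in all libraries and STC2 in SKBR3. Read numbers were also low in normoxic SKBR3 for STC1 (25.8 to 57.3 reads or read pairs) and ADM (28.4 to 91.8), and in normoxic T47D for VEGFA (14.7 to 125).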

Other observations

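A few other mRNAs of secreted factors and their makers, chosen after their values were seen, differed between lines. EPO was listed at 0 in both SUM1315 libraries and in normoxic T47D, stood at 1.22 RPKM in hypoxic T47D, and went from 1.13 to 10.8 RPKM in SKBR3. The vasoconstrictor endothelin EDN2 was listed at 0 in SUM1315, went from 43.1 to 175 RPKM in SKBR3 and from 0.729 to 2.35 RPKM in T47D. PTGS2, the inducible cyclooxygenase, went from 0.149 to 1.73 RPKM in SUM1315 and was at most 0.00687 RPKM in the other lines. TGFB1 went from 0.339 to 11.9 RPKM in SKBR3, from 57.3 to 50.3 RPKM in SUM1315 and from 1.14 to 1.19 RPKM in T47D. Each of these compares single libraries.

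Among endothelial markers, PECAM1, VWF, KDR, TEK and ERG stayed below 0.05 RPKM in every library, while CDH5 stood at 0.620 and 0.970 RPKM in SKBR3. Of the fibroblast markers, COL3A1 was listed at 0 in all 6 libraries, while COL1A1 stood at 91.7 and 119 RPKM in SUM1315. Of the leukocyte markers, PTPRC reached at most 0.00652 RPKM, and CD68 stood at 45.6 and 44.3 RPKM in SUM1315.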
